A study of Mus musculus with 24 samples.

Results

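Wild-type muscle cells answered bone morphogenetic protein 4 (BMP4) differently as dividing myoblasts and as differentiated myotubes, and the data here give that stage difference gene by gene. It was formed as the BMP4 response of myotubes (treated minus untreated) minus the BMP4 response of myoblasts. The 12 arrays were chosen by their titles as all wild-type arrays of the series, 12 of 24 in all, in 4 groups of 3. The other 12 arrays hold the same 4 groups of a MuSK-null line, MuSK being the receptor tyrosine kinase that organises the neuromuscular synapse. RNA was measured on Affymetrix mouse gene arrays, and the values are log2 signals.

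The wild-type cells were 1 immortalised line, H-2Kb-tsA58, which carries a temperature-sensitive large T antigen. Untreated and BMP4-treated myoblasts grew at 33 °C in fetal bovine serum with interferon-γ, where the antigen keeps the cells cycling. Myotubes had been switched for 3 days to horse serum at 37 °C. Treated cultures of both stages received 25 ng/ml BMP4 for 8 h. Treated myoblasts were first deprived of serum for 4 h and treated myotubes were not. Whether the untreated myoblasts went through the same deprivation is not stated. A myoblast response below, treated minus untreated, may therefore hold an effect of serum deprivation that cannot be told apart from that of BMP4. Stage, serum, interferon-γ and temperature likewise cannot be told apart in any stage difference. The labels call the 3 arrays of a group biological replicates without naming separate cultures or passages, so a p-value here measures variation among these arrays, part of which may be technical.

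BMP4 binds paired serine/threonine kinase receptors that phosphorylate receptor-regulated Smad proteins, and these enter the nucleus with Smad4 and bind GC-rich DNA. Direct targets include the Id genes, whose products keep muscle transcription factors from binding DNA, and the inhibitory Smads, which close a negative feedback loop. In cultured myoblasts BMPs are known to hold back fusion into myotubes and to turn on genes of the osteoblast lineage.

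Array medians over the genes tested lay between 7.88 and 7.93, and the median SD within a wild-type group was 0.076 to 0.10. All 8 myotube markers and all 6 myoblast markers checked lay above the level of dim probe sets (6.64, the 95th percentile of 1027 olfactory receptor genes) in all 4 groups. The median of the myotube markers was 11.60 in untreated myoblasts and 13.56 in untreated myotubes, so the myoblast cultures already held muscle transcripts. Markers of other cell types were in part present. In every group 4 of 6 fibroblast, 5 of 5 smooth muscle, 3 of 5 cartilage, 3 of 5 fat and 1 of 4 macrophage markers lay above the dim level, as did 2 or 3 of 4 measured osteoblast and 1 or 2 of 4 endothelial markers. The highest fibroblast marker reached 11.44 to 12.61 and the smooth muscle markers had medians of 9.92 to 10.61, while no endothelial marker passed 6.81. At or below the dim level in every group were Lum and Tcf21 (fibroblasts), Ibsp (osteoblasts), Acan and Matn1 (cartilage), Fabp4 and Adipoq (fat), Kdr and Tek (endothelium), and Ptprc, Adgre1 and Csf1r (macrophages). The part of other cell types in the responses was not tested. In 4 myoblast arrays, among them untreated replicate 2 and BMP4 replicate 3 of the wild type, values deviated together from their group means (correlations 0.42 to 0.54 across genes). These arrays, 1 from each myoblast group of both genotypes, were picked for their joint deviation on probe sets outside the gene annotation. The correlations come from the same arrays and are therefore a description. Calls that ended without these 4 arrays, called the array set below, are given both ways.

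The stage difference of the response was called for 682 of 19938 genes (3.42%) by limma at an adjusted p under 0.05. The response was higher in myotubes for 382 genes (1.92%) and lower for 300 (1.5%). Each array reads a whole culture, so a change in the share of a cell type and a change in RNA per cell cannot be told apart. Below, a gene that moved in 1 stage alone is one whose response in the other stage was not called. A higher response was more often a weaker fall than a stronger rise. Of the 382 genes, 175 fell in myoblasts alone, 73 fell at both stages but more in myoblasts, and 19 fell in myoblasts and rose in myotubes. Another 86 rose in myotubes alone and 23 rose at both stages but more in myotubes. Among the 300 genes with a lower response, 122 rose in myoblasts alone and 69 rose at both stages but more in myoblasts. A further 79 fell in myotubes alone, 9 fell at both stages but more in myotubes, and 14 rose in myoblasts and fell in myotubes. The remaining 13 genes, 6 higher and 7 lower, passed for neither response by itself.

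Most genes that answered BMP4 were not called for a stage difference. In myoblasts 1038 genes rose (5.21%) and 1148 fell (5.76%), and in myotubes 878 rose (4.40%) and 871 fell (4.37%). The stage difference was called for 21.97% of the genes that rose in myoblasts, 205 of them lower and 23 higher in myotubes. It was called for 24.04% of the genes that fell in myoblasts, 267 toward a higher and 9 toward a lower response. Of the genes that rose in myotubes 22.44% were called, and of those that fell 20.09%. Selecting genes for a response in 1 stage uses the same arrays as the difference, so these shares are descriptions. The median SE of a stage difference was 0.13 log2 units. On simulated arrays with 200 changed genes among 19938, limma recovered 10.4% of stage differences of 0.3, 67.2% of 0.6 and 92.4% of 1. Small differences were thus mostly missed on the simulated arrays. Those had independent noise and fewer changed genes than were called here, so the rates may differ for these data.

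**Figure D1:**
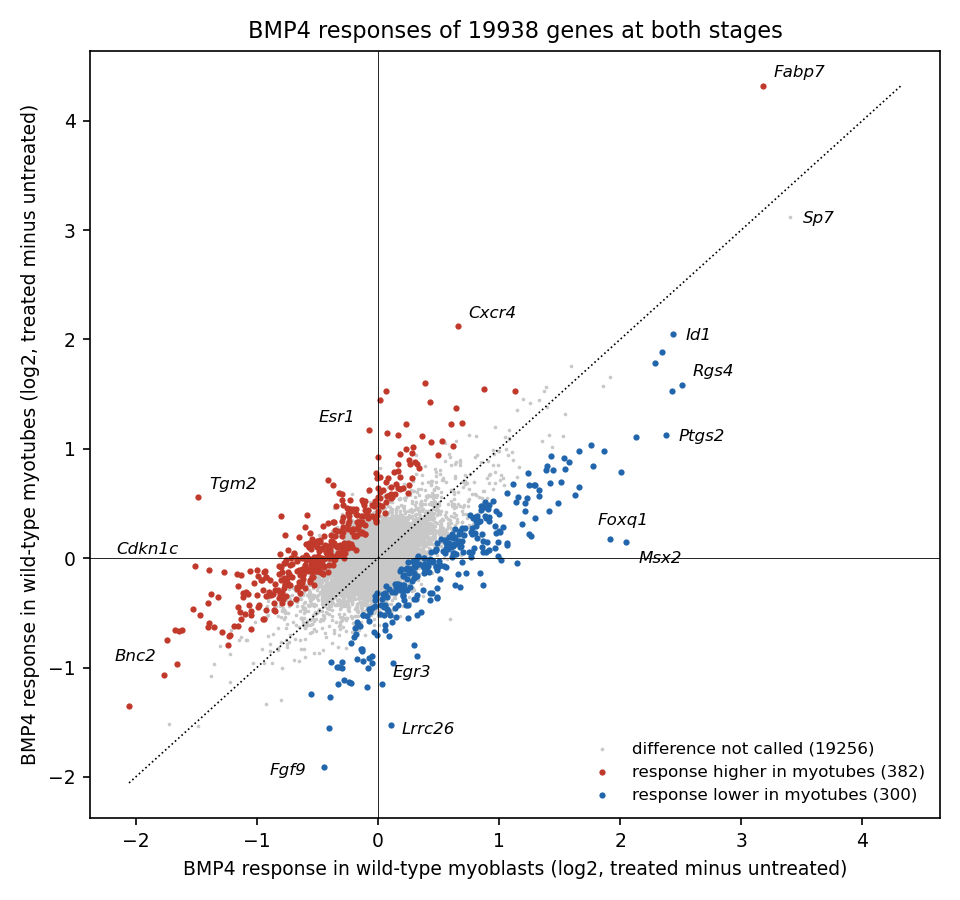
Each of 19938 genes is plotted by its BMP4 response (log2, treated minus untreated, mean of 3 arrays minus mean of 3) in wild-type myoblasts on the horizontal axis and in wild-type myotubes on the vertical axis. Red points (382) had a higher and blue points (300) a lower response in myotubes by limma, grey points were not called, and the dotted line marks equal responses; Fabp7 lies above the line and Msx2, Foxq1 and Ptgs2 well to its right.

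Transcription factors that BMP signalling induces in many cell types held the largest count of weaker responses in myotubes relative to list size. Of 30 measured members, 8 had a lower and 1 a higher response, with a median difference of -0.12 against 0.02 over all genes tested. Over all genes tested 1.5% were lower and 1.92% higher, the shares to set beside list counts here and below. This list of factors did answer at both stages, with 22 members rising in myoblasts and 20 in myotubes and 0 falling at either stage. Over all genes tested 5.21% rose in myoblasts and 4.40% in myotubes. The promoters of members and feedback genes of this group are shown first, because direct targets are known to be bound by BMP-activated Smads at short GC-rich sequences. The hexamer GGCGCC, which reads the same on both strands, is one of these. The other searched was GGAGCC, which reads as GGCTCC on the opposite strand. Each line gives the 250 bases before the transcription start, 5′ to 3′ on the gene's strand, from RefSeq (GRCm38.p6), with matches on either strand in capitals. The 4 windows are chr12:25096093-25096342 for Id2, chr2:71546755-71547004 for Dlx2, chr9:64022060-64022309 for Smad6 and chr13:53472781-53473030 for Msx2, all on the minus strand.
Id2: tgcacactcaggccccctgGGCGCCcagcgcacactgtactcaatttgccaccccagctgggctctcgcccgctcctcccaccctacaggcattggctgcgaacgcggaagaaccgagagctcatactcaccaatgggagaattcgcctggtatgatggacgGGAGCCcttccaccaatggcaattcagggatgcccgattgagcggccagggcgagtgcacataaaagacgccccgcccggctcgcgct
Dlx2: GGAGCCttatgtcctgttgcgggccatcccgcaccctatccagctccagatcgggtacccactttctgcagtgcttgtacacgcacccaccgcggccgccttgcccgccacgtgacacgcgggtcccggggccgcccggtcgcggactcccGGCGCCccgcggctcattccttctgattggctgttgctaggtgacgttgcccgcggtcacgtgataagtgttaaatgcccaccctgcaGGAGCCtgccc
Smad6: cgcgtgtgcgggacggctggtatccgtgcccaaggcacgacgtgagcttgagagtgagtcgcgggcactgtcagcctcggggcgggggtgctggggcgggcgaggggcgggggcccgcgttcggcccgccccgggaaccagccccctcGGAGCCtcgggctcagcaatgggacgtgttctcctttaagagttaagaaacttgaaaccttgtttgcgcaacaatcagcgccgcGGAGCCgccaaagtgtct
Msx2: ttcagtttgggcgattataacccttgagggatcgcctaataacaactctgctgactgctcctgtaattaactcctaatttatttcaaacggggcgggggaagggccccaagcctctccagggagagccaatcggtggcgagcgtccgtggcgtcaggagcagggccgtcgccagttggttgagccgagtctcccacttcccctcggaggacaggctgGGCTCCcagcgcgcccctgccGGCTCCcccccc
Id2 and Dlx2 each held 1 GGCGCC, 231 and 99 bases before the start, and Smad6 and Msx2 held 0. GGAGCC matched 1 time in Id2 and 2 times each in Dlx2, Smad6 and Msx2, and no match of one hexamer overlapped a match of the other. Of the 11 genes of this group looked up, 6 had an entry in the promoter table. The other two entries, not printed, were Id3 with 0 GGCGCC and 1 GGAGCC and Dlx1 with 0 matches of either hexamer. GGCGCC lay in 13.1% of the promoters of all genes tested, in 13.8% of those of genes with a lower response in myotubes and in 17.2% of those of genes with a higher response. GGAGCC lay in 30.6%, 40.6% and 34.4%. A match is a string of letters and not a measured binding site, and some genes have several promoters in the table.

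Msx2, a homeobox repressor of muscle differentiation on chromosome 13 (probe set 10409314), had the largest drop in response. Its signals were 7.86, 7.73 and 7.64 in untreated and 9.62, 9.92 and 9.83 in BMP4-treated myoblasts, and 6.69, 6.85 and 6.86 in untreated and 6.78, 6.93 and 7.13 in treated myotubes. In myoblasts the treated arrays lay far above the untreated ones, and in myotubes the 2 sets overlapped, close above the dim level. The response was 2.05 (SE 0.12) in myoblasts, a 4.13-fold rise, and 0.15 (SE 0.12) in myotubes, and the stage difference was -1.90 (SE 0.17, limma adjusted p = 5.30e-07). Its relative Msx1 gave 0.52 and 0.15, and that stage difference was not called (-0.37, SE 0.12, adjusted p = 0.0985).

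Dlx2, a homeobox factor of craniofacial and bone development, rose at both stages and reached a higher level in myoblasts. It went from 9.33, 9.25 and 9.36 to 11.84, 11.83 and 11.57 in myoblasts and from 9.02, 9.20 and 9.07 to 10.62, 10.73 and 10.51 in myotubes. The untreated levels of the stages were close while the treated ones were apart by more than any spread within a group. The responses were 2.43 and 1.53, a stage difference of -0.90 (SE 0.15, adjusted p = 0.000851). Dlx5, a driver of osteoblast genes, was 7.57, 7.64 and 7.41 in treated myoblasts and below the dim level on all other wild-type arrays (5.93 to 6.61). Its stage difference was called (adjusted p = 0.00665), but the sizes of its responses cannot be read. Dlx1 differed by -0.50 (SE 0.10) and Foxc2, a forkhead factor of mesenchyme, by -0.73 (SE 0.11). Dlx3 rose by 1.00 and 0.98, with a stage difference of -0.02 (SE 0.13).

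The Id genes encode inhibitors of differentiation that bind E proteins. Id2 was 10.54, 10.40 and 10.50 in untreated and 12.14, 12.05 and 12 in treated myoblasts. In myotubes it was 11.61, 11.72 and 11.60 untreated and 12.56, 12.44 and 12.58 treated. The smaller myotube response (0.88 against 1.58, a stage difference of -0.70, SE 0.11, adjusted p = 0.000565) started from a higher untreated level, and treated Id2 was still 0.46 higher in myotubes (adjusted p = 3.7e-05). Id1 (2.44 and 2.05) and Id3 (2.34 and 1.88) also passed, at -0.39 (adjusted p = 0.0373) and -0.46 (adjusted p = 0.0483). Leaving out 1 array in turn ended the Id1 call for 9 of 12 arrays (adjusted p 0.0406 to 0.124) and the Id3 call for 8 (0.00456 to 0.149). The Id1 call stood without BMP4 myoblast replicate 3 or replicate 2 of either myotube group, and the Id3 call without BMP4 myoblast replicate 1, untreated myoblast or myotube replicate 2, or BMP4 myotube replicate 1. Without the array set both missed the threshold (adjusted p = 0.0723 and 0.114). A replicate block ended both calls too, and a fit of the wild-type arrays alone ended that of Id3 (adjusted p up to 0.147 for Id1 and 0.132 for Id3). Id4 rose by 0.75 and 0.48, a difference that was not called (-0.27, SE 0.14, adjusted p = 0.479).

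Prrx2, a homeobox factor of limb mesenchyme, was the 1 member of this list with a higher response in myotubes. It went from 11.18, 11.09 and 11.15 to 12.07, 12.01 and 11.95 in myoblasts and from 10.24, 10.17 and 10.23 to 11.73, 11.80 and 11.74 in myotubes. It was lower in myotubes in each treatment, and the gap narrowed with BMP4 (responses 0.87 and 1.55, stage difference 0.67, SE 0.09, adjusted p = 8.80e-05). Hey1, a Notch and BMP target, rose by 1.26 and 1.41, a difference that was not called (0.16, SE 0.18, adjusted p = 0.839).

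**Figure D2:**
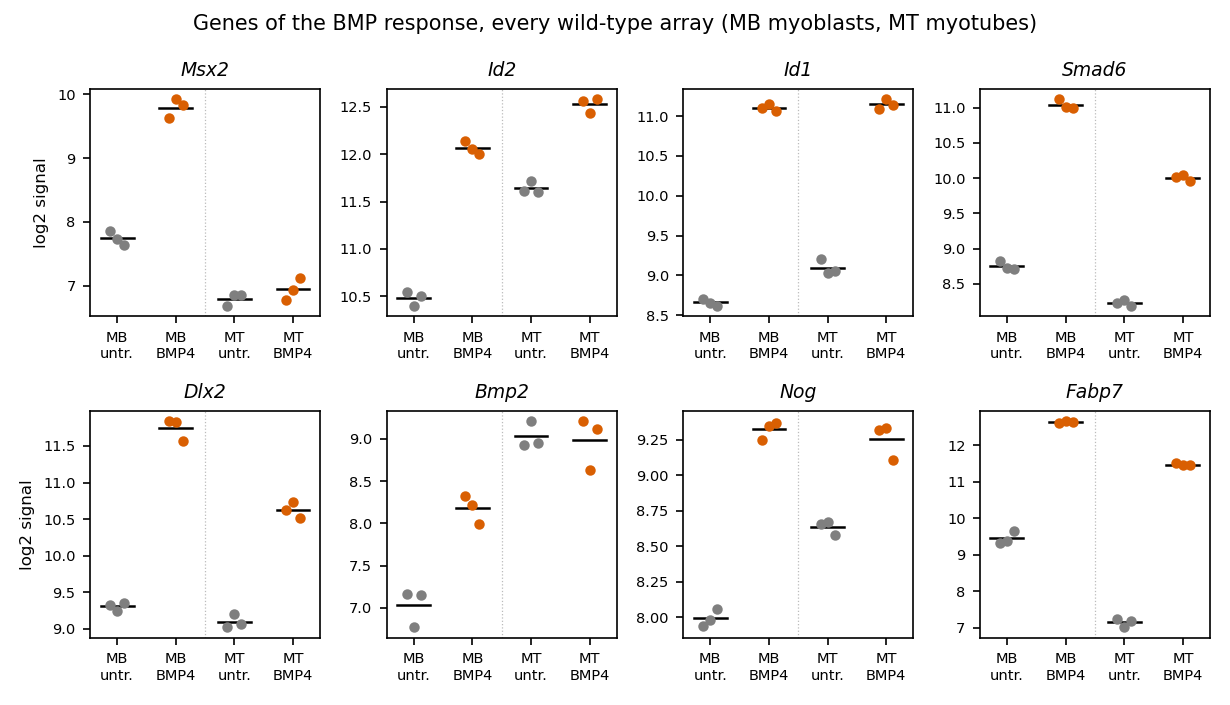
Log2 signals of 8 genes of the BMP response on every wild-type array, in untreated (grey) and BMP4-treated (orange) myoblasts (MB) and myotubes (MT), with a bar at the mean of each group of 3. Msx2 rises in myoblasts and not in myotubes, Smad6 and Dlx2 rise less in myotubes, Bmp2 starts higher in myotubes and its treated and untreated myotube arrays overlap, and Fabp7 starts lower in myotubes and climbs further.

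Of 19 Smads and intracellular feedback genes 3 had a lower and 1 a higher response, with a median difference of -0.12. Smad6, an inhibitory Smad that blocks receptor signalling, read 8.83, 8.73 and 8.71 untreated and 11.12, 11.01 and 11.00 treated in myoblasts, and 8.23, 8.27 and 8.19 and then 10.02, 10.05 and 9.96 in myotubes. Its treated level was about 1 log2 unit lower in myotubes (-1.04), and the responses of 2.29 and 1.78 differed by -0.51 (SE 0.11, adjusted p = 0.00783). Bambi, a decoy receptor without kinase activity, differed by -0.68 (responses 1.66 and 0.98, SE 0.10, adjusted p = 0.000317). Skil, a repressor of Smad transcription, differed by -0.43 (adjusted p = 0.0212), a call that ended in 5 of 12 leave-one-out fits (adjusted p up to 0.0675). The other inhibitory Smad, Smad7 (1.86 and 1.57, difference -0.29, SE 0.12, adjusted p = 0.315), and Smad9 (1.54 and 1.32, difference -0.23, SE 0.11, adjusted p = 0.387) were not called. Smad3, which carries TGF-beta signals, fell at both stages, by 0.68 in myoblasts and 0.37 in myotubes. Its stage difference of 0.31 (adjusted p = 0.027) was lost on leaving out any of 8 of the 12 arrays (adjusted p up to 0.0869), and without the array set (adjusted p = 0.0511).

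Secreted BMPs and their antagonists moved in both directions, 4 of 26 lower and 3 higher (median -0.03), against 2 of 17 receptors and coreceptors. Bmp2, a ligand of the same receptors, was 7.17, 6.77 and 7.15 in untreated and 8.32, 8.22 and 7.99 in treated myoblasts. In myotubes it was 8.93, 9.21 and 8.95 untreated and 9.21, 8.63 and 9.12 treated. Treated myoblasts thus stayed below untreated myotubes, and the myotube arrays overlapped. The responses of 1.15 and -0.04 differed by -1.19 (SE 0.24, adjusted p = 0.00476). Nog, encoding the BMP antagonist noggin, rose by 1.33 and 0.62 (difference -0.71, SE 0.12, adjusted p = 0.000752), and its treated levels met at 9.25 to 9.37 in myoblasts and 9.11 to 9.33 in myotubes. Fst, encoding the activin and BMP antagonist follistatin, rose by 0.49 in myoblasts and fell by 0.27 in myotubes (difference -0.76, SE 0.10). Inhba, the activin A subunit, rose at both stages and less in myotubes (1.16 and 0.56). Endogenous Bmp4 itself fell in myoblasts (-1.02) and was not called in myotubes (-0.23), so its difference was positive (0.80, SE 0.16, adjusted p = 0.00383). Nbl1, another secreted antagonist, fell by 0.37 in myoblasts and rose by 0.33 in myotubes (difference 0.70, SE 0.10). Mstn, encoding myostatin, lay below the dim level on the myoblast arrays, so its difference of 0.71 has no readable size there. The call ended for 6 of 12 arrays left out (adjusted p up to 0.0709) and without the array set (0.0579). Among receptors Hjv, the BMP coreceptor hemojuvelin, fell in myoblasts (-0.55) and not in myotubes (-0.09), and Musk, which binds BMPs besides its synaptic role, rose in myoblasts (0.56) and was not called in myotubes (0.09, difference -0.47, SE 0.10, adjusted p = 0.00762).

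Osteoblast genes did not move as a block. Of 17 measured, 3 had a lower and 1 a higher response (median -0.02). Sp7, the osteoblast transcription factor osterix, had a strong rise at both stages, 10.6-fold in myoblasts and 8.69-fold in myotubes, and its stage difference was not called (-0.28, SE 0.19, adjusted p = 0.646). Alpl, tissue-nonspecific alkaline phosphatase, lagged in myotubes. It went from 8.46, 8.17 and 8.59 to 10.69, 10.57 and 10.36 in myoblasts and from 7.29, 7.20 and 7.14 to 8.30, 8.33 and 8.33 in myotubes. The treated myotubes ended near the level of untreated myoblasts (responses 2.13 and 1.11, difference -1.02, SE 0.15, adjusted p = 0.000199). Ank, a pyrophosphate exporter, rose at both stages with a difference of -0.37 (SE 0.08, adjusted p = 0.00802), a call that was lost in a fit of the wild-type arrays alone (adjusted p = 0.0592). Panx3, a channel protein of bone and cartilage, rose in myoblasts, from below the dim level, and fell by 0.31 in myotubes. Dmp1, a mineralisation protein, rose by 0.53 in myotubes, and its group means in myoblasts were at or below the dim level. Sox9, the cartilage factor, was the 1 of 21 chondrocyte genes called (0.63 and 0.18, difference -0.45, SE 0.09). That share (4.76%) is near the 3.42% over all genes tested.

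Wnt pathway genes gave the largest number of lower responses of any list, 10 of 50 with 2 higher (median -0.03). The 10 were the receptors Fzd1, Fzd6 and Fzd7, the R-spondin receptors Lgr4 and Lgr6, the ligands Wnt2, Wnt4 and Rspo3, the transcription factor Lef1 and the inhibitor Nkd2, and all 10 rose in myoblasts. Lgr6 was 8.18, 7.85 and 7.97 in untreated and 9.73, 9.68 and 9.57 in treated myoblasts, and 10.80, 10.89 and 11.01 in untreated and 11.61, 11.51 and 11.52 in treated myotubes. Its smaller myotube response (0.65 against 1.66, difference -1.01, SE 0.13, adjusted p = 2.58e-05) sat on a level that was higher in myotubes throughout. Nkd2 was instead lower in myotubes throughout and differed by -0.98 (1.49 and 0.51, SE 0.14, adjusted p = 0.00011). Fzd7 rose by 0.85 in myoblasts and was not called in myotubes (-0.14). Wnt11, a non-canonical ligand, went the other way, with 0.29 (adjusted p = 0.0948) in myoblasts and a rise of 1.02 in myotubes (difference 0.73, SE 0.15, adjusted p = 0.00522). Lgr5, another R-spondin receptor, fell by 0.92 in myoblasts and was not called in myotubes (-0.17).

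TGF-beta ligands and their matrix targets gave 7 lower and 1 higher of 30 (median -0.04). Ccn2, connective tissue growth factor, went from 11.40, 11.23 and 11.40 to 12.66, 12.72 and 12.53 in myoblasts and from 11.96, 12.02 and 11.84 to 12.58, 12.68 and 12.57 in myotubes. The treated levels of the stages overlapped, so its difference (-0.63, SE 0.13, adjusted p = 0.00421) lay in the untreated levels. Timp3, a metalloproteinase inhibitor, rose by 1.33 and 0.57. Tnc, encoding the matrix protein tenascin C, rose by 0.80 in myoblasts and was not called in myotubes (0.23), and its stage difference (-0.57, adjusted p = 0.0147) ended without untreated myoblast replicate 2, BMP4 myoblast replicate 1 or untreated myotube replicate 2 (adjusted p up to 0.0584). Col6a3, a collagen VI chain, fell in myoblasts alone (-0.39, difference 0.47, SE 0.08).

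Growth factor genes split by gene. Of 23 FGF ligands, receptors and feedback genes, 3 had a higher and 2 a lower response. Fgf9 was 7.47, 7.53 and 7.60 in untreated and 6.84, 7.13 and 7.28 in treated myoblasts, and 10.01, 9.85 and 9.87 in untreated and 8.05, 7.96 and 7.99 in treated myotubes. The ligand was far higher in untreated myotubes, and most of that gap was gone in treated cultures, a fall by 1.91 in myotubes against 0.45 in myoblasts (difference -1.46, SE 0.14, adjusted p = 7.62e-07). Fgfr2, a receptor of bone progenitors, rose by 1.63 and 0.58 (difference -1.05, SE 0.14). Fgf2 rose by 0.37 and 1.12 (difference 0.75, SE 0.12), and Spry2, a feedback inhibitor of receptor tyrosine kinases, by 0.23 and 1.23 (difference 1.00, SE 0.10, adjusted p = 2.85e-06). Fgfr4, a receptor of muscle progenitors, fell at both stages and less in myotubes (-1.29 and -0.68).

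Prostaglandin genes gave 2 higher and 2 lower of 18. Ptgs2, cyclooxygenase 2, was 10.37, 10.21 and 10.44 in untreated and 12.70, 12.79 and 12.67 in treated myoblasts, and 11.27, 11.30 and 11.22 in untreated and 12.34, 12.37 and 12.45 in treated myotubes. It was higher in myotubes before treatment and lower after it, with responses of 2.38 and 1.13 (difference -1.26, SE 0.12, adjusted p = 5.65e-07). Hpgd, which breaks prostaglandins down, rose more in myotubes (0.61 and 1.22, difference 0.62, SE 0.11). Ptgis, prostacyclin synthase, fell by 0.29 in myoblasts and rose by 0.49 in myotubes. The fourth gene, Pla2g4a (-0.43, adjusted p = 0.0482), lost its call with 10 of 12 arrays left out (adjusted p up to 0.138).

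Among rises that were larger in myotubes, Cxcr4, Esr1 and Fabp7 had signals above the dim level in all 4 groups. Cxcr4, a chemokine receptor of muscle progenitors on chromosome 1 (probe set 10357472), went from 9.26, 9.42 and 9.37 to 9.99, 9.98 and 10.06 in myoblasts and from 8.74, 8.87 and 8.64 to 10.89, 10.91 and 10.81 in myotubes. The order of the stages turned over, with untreated myotubes lowest and treated myotubes highest of all 4 groups. Its rises of 1.58-fold and 4.35-fold differed by 1.46 log2 units (SE 0.11, adjusted p = 1.89e-08). Esr1, estrogen receptor alpha, was 10.10, 10.14 and 10.11 in untreated and 10.07, 10.04 and 10.02 in treated myoblasts, and 9.51, 9.40 and 9.55 in untreated and 10.66, 10.70 and 10.61 in treated myotubes. It rose in myotubes alone, from below the myoblast level to above it (difference 1.25, SE 0.10, adjusted p = 3.40e-08). Fabp7, a brain-type fatty acid binding protein, rose 9.09-fold in myoblasts and 20.0-fold in myotubes (difference 1.14, SE 0.12, adjusted p = 2.26e-06), and stayed lower in myotubes after BMP4 (11.45 to 11.50 against 12.61 to 12.66). Dhrs3, a retinaldehyde reductase, rose by 1.60 in myotubes against 0.39 in myoblasts (adjusted p = 0.0683), a difference of 1.21 (SE 0.19). Myh15, a myosin heavy chain, rose from 5.90, 5.48 and 5.71 to 7.25, 7.07 and 7.33 in myotubes. On the myoblast arrays it read 4.83 to 5.02. Untreated myotubes and all myoblast arrays thus lay below the dim level, and neither the myotube rise nor the difference of 1.46 (SE 0.12) has a readable size. The same holds for Slc10a4 (1.43) and Grin3a (1.07), whose means were below the dim level in every wild-type group except treated myotubes.

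Falls that were larger in myotubes included Lrrc26, an auxiliary subunit of potassium channels, and Egr3, an immediate early factor. Lrrc26 was 9.78, 9.83 and 9.78 in untreated and 8.50, 8.32 and 7.99 in treated myotubes, while its myoblast arrays overlapped between 6.90 and 7.28 (difference -1.64, SE 0.15, adjusted p = 5.65e-07). Egr3 was 10.78, 11.10 and 11.10 in untreated and 9.92, 9.78 and 9.84 in treated myotubes, and its myoblast arrays overlapped as well (difference -1.18, SE 0.16, adjusted p = 4.75e-05). Abra, an actin-binding activator of serum response factor, fell by 0.28 in myoblasts and 1.11 in myotubes. Among 33 immediate early and serum-responsive genes 3 had a lower and 2 a higher response. Egr2 rose in myoblasts alone (0.64, difference -0.51, SE 0.11), whereas Jun rose more in myotubes (0.21 and 0.64, difference 0.43, SE 0.08). Without the array set, 5 genes of this list were lower. Kcnj2, Timp4 and Klk1b8 fell in myotubes and lay below the dim level on the myoblast arrays.

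Foxq1 and Slc5a7 rose in myoblasts alone. Foxq1, a forkhead factor, was 8.33, 8.20 and 8.31 in untreated and 10.26, 10.26 and 10.06 in treated myoblasts, against 8.34, 8.34 and 8.28 and then 8.52, 8.42 and 8.53 in myotubes. The untreated stages overlapped, so the whole gap between stages lay in the treated cultures (responses 1.91 and 0.17, difference -1.74, SE 0.12, adjusted p = 6.33e-09). Slc5a7, the high-affinity choline transporter, gave 1.26 and 0.21 (difference -1.06, SE 0.12). Avpr1a, a vasopressin receptor, rose at both stages (2.00 and 0.79, difference -1.22, SE 0.16), as did Rgs4, a regulator of G-protein signalling (2.51 and 1.59, difference -0.92, SE 0.13). The untreated Rgs4 arrays lay at or near the dim level at both stages, so its responses have no exact size.

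Muscle genes with a called stage difference had mostly fallen in treated myoblasts and fallen less, or not been called, in myotubes. Of 22 fusion and membrane genes, 11 fell in myoblasts and 5 in myotubes, and 4 had a higher and 0 a lower stage difference (median 0.08). Over all genes tested 5.76% fell in myoblasts and 4.37% in myotubes. Cdh15, the muscle cadherin, was 12.57, 12.52 and 12.52 in untreated and 11.39, 11.39 and 11.42 in treated myoblasts, and 12.22, 12.16 and 12.30 in untreated and 11.68, 11.80 and 11.73 in treated myotubes. It fell at both stages, and the order of the stages turned over (-1.14 and -0.49, difference 0.65, SE 0.09, adjusted p = 0.000122). Bin1, which shapes membrane tubules, fell in myoblasts alone (-0.50 and -0.09, difference 0.41, SE 0.08). The other 2 were Adam12, which rose in myotubes (0.33), and Cav3, whose call (0.48, adjusted p = 0.0278) ended for 8 of 12 arrays left out (adjusted p up to 0.0944) and without the array set (0.113). The count was 2 without untreated myoblast replicate 1, BMP4 myoblast replicate 2 or 3, untreated myotube replicate 2 or BMP4 myotube replicate 2, and 2 in a fit of the wild-type arrays alone.

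Of 48 sarcomere genes 15 fell in myoblasts (5.76% over all genes tested) and 0 rose, against 4 falls (4.37%) and 2 rises in myotubes. The stage difference was called for 4, all higher (median 0.12 against 0.02 over all genes). Mybph, a myosin-binding protein, fell by 0.67 and 0.28, Myom2, a protein of the M band, by 0.56 and 0.22, and Actn3, fast alpha-actinin, by 0.52 in myoblasts alone, and Myh15 was the fourth. Mybph lost the call without untreated myoblast replicate 3, BMP4 myoblast replicate 1 or untreated myotube replicate 2 (adjusted p up to 0.068). Actn3 lost it without replicate 2 of either myoblast group, untreated myotube replicate 3 or BMP4 myotube replicate 2 (adjusted p up to 0.0634). The list's count was 2 without untreated myoblast replicate 2, BMP4 myoblast replicate 1, untreated myotube replicate 2 or BMP4 myotube replicate 2, and 2 in a fit of the wild-type arrays alone. Atp2a1, the calcium pump of fast muscle, fell in myoblasts alone (-0.53 and -0.11, difference 0.42, SE 0.09, adjusted p = 0.0056). Myogenic regulators gave 3 higher and 1 lower of 20. Myod1 fell by 0.21 in myoblasts and was not called in myotubes (0.10, difference 0.31, adjusted p = 0.0161), and Myog fell by 0.44 and was not called in myotubes (-0.07, difference 0.37, adjusted p = 0.025). In a fit of the wild-type arrays alone 1 of the 3 was left, Six4 (difference 0.64, SE 0.12 in the fit of all arrays). Myog was lost for 6 of 12 arrays left out (adjusted p up to 0.0897) and Myod1 for untreated myotube replicate 1 (adjusted p = 0.052).

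The neuromuscular junction list had the largest share of called members of all 30 lists, 10 of 28, against 3.42% over all genes tested. The list had 6 higher and 4 lower (median 0.05). The higher ones were the acetylcholine receptor subunits Chrnb1, Chrnd and Chrng, the MuSK adaptor Dok7, the agrin receptor Lrp4 and the nuclear anchor Syne1. Chrnd was 11.25, 11.19 and 11.19 in untreated and 10.30, 10.34 and 10.31 in treated myoblasts, and 12.60, 12.67 and 12.67 in untreated and 12.39, 12.33 and 12.30 in treated myotubes. It fell at both stages by more than the spread of the arrays, and 1.86-fold in myoblasts against 1.24-fold in myotubes (difference 0.59, SE 0.08, adjusted p = 4.18e-05). Chrng fell by 0.76 and 0.24. Dok7 was 9.58 to 9.80 on all 6 myoblast arrays and rose in myotubes from 10.19, 10.03 and 10.22 to 10.78, 10.85 and 10.75 (difference 0.65, SE 0.11, adjusted p = 0.00129). Colq, the collagen tail of acetylcholinesterase, fell in myotubes alone (-0.57, difference -0.50, SE 0.09). Musk, Erbb2 and Etv5 were the other lower ones. The Etv5 call ended for 8 of 12 arrays left out (adjusted p up to 0.106) and without the array set (0.0701). It also ended in a fit of the wild-type arrays alone and with a replicate block (adjusted p up to 0.104). The lower count was 2 without untreated or BMP4 myoblast replicate 2, BMP4 myoblast replicate 1, any untreated myotube array or BMP4 myotube replicate 3, and the higher count stayed at 6 for each array left out.

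**Figure D3:**
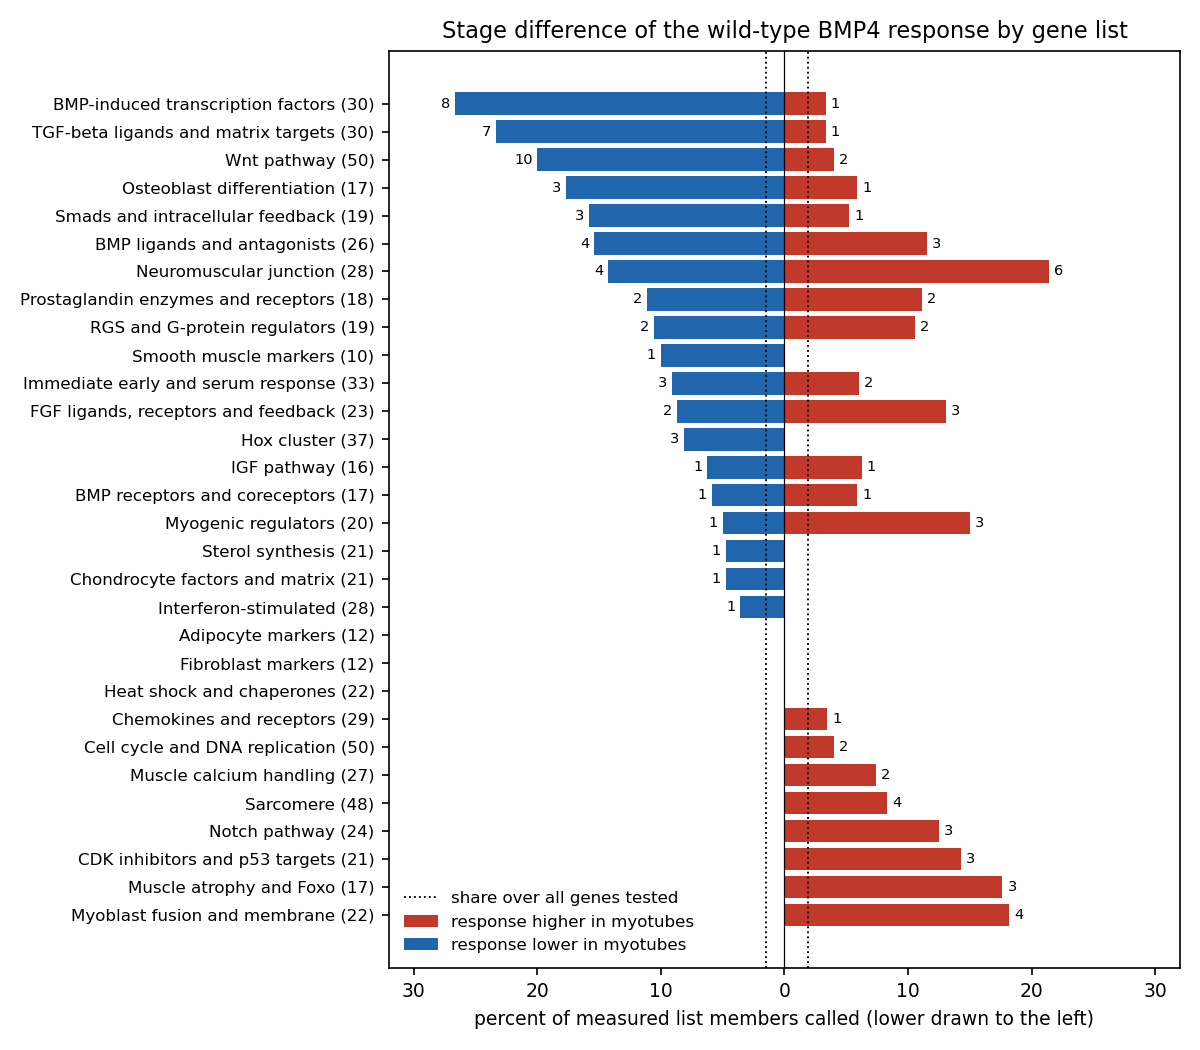
For each of 30 gene lists (measured members in brackets), bars give the percent of members whose wild-type BMP4 response was called higher (red, right) or lower (blue, left) in myotubes, with the count at the bar's end and the share over all genes tested as dotted lines (1.92% higher, 1.5% lower). The lists of BMP-induced factors, TGF-beta targets and Wnt genes extend furthest to the left and the neuromuscular junction list furthest to the right.

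Several genes of growth arrest and progenitor signalling also fell in myoblasts alone or fell more there. Cdkn1c, an imprinted inhibitor of cyclin-dependent kinases, went from 9.77, 10.05 and 9.71 to 8.42, 8.28 and 8.31 in myoblasts. In myotubes it was 8.82, 8.58 and 8.69 untreated and 8.46, 8.64 and 8.77 treated, and these arrays overlapped. Untreated myoblasts stood alone as the high group (responses -1.51 and -0.07, difference 1.44, SE 0.14, adjusted p = 6.93e-07). Gadd45g, a growth arrest gene, fell by 0.35 in myoblasts alone (difference 0.61, SE 0.12). Of 21 measured inhibitors of cyclin-dependent kinases and p53 targets, 3 were higher and 0 lower (median -0.08 against 0.02 over all genes). In myoblasts 6 of the 21 fell and 2 rose, against 5.76% and 5.21% of all genes tested, and the list's median myoblast response was 0.009. The third called, Gadd45a (0.41, adjusted p = 0.0271), lost its call for 8 of 12 arrays left out (adjusted p up to 0.0832). It also lost the call without the array set (0.142). Of 24 Notch genes 3 were higher and 0 lower, among them the ligand Dll1, which fell in myoblasts alone (-0.54, difference 0.72, SE 0.09), and the receptor Notch3, which fell at both stages (-0.86 and -0.33, difference 0.53, SE 0.11). The third, Jag2 (difference 0.38, adjusted p = 0.0395), lost its call for 11 of 12 arrays left out (adjusted p up to 0.12). Its call also ended in a fit of the wild-type arrays alone, with median centring and with a replicate block. Fbxo32, the atrophy ligase atrogin, and Igf1 fell in myoblasts alone (-0.49 and -0.71), with differences of 0.55 (SE 0.11) and 0.54 (SE 0.12). The atrophy list had 3 of 17 higher, and 1 without untreated myoblast replicate 1, untreated myotube replicate 3 or BMP4 myotube replicate 1. Adamts5, an aggrecan-cutting protease, fell by 1.68 and 0.66 (difference 1.02, SE 0.09) and ended lower in treated myoblasts than in treated myotubes, after the opposite order untreated. Bnc2, a zinc finger factor, fell by 1.74 and 0.75.

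With BMP4 19 of the called genes fell in myoblasts and rose in myotubes, and 14 did the reverse, each response passing by itself. The widest span was that of Tgm2, tissue transglutaminase (chromosome 2, probe set 10489204), a protein cross-linking enzyme. It was 9.70, 9.48 and 9.49 in untreated and 8.09, 8.08 and 8.05 in treated myoblasts, and 9.79, 9.71 and 9.79 in untreated and 10.40, 10.32 and 10.25 in treated myotubes. The untreated stages were close (0.21 apart, adjusted p = 0.062), and the treated ones were 2.25 apart. The responses were -1.48 (SE 0.09) and 0.56 (SE 0.09), and their difference was 2.04 (SE 0.12, adjusted p = 2.11e-09). Gfra1, a receptor for glial cell line-derived neurotrophic factor, fell by 0.80 in myoblasts and rose by 0.39 in myotubes, and Chst3, a chondroitin sulfotransferase, fell by 0.41 and rose by 0.72, the rise starting below the dim level. Dapk2, a death-associated kinase, and Btg2, an antiproliferative gene, did the same, with differences of 0.98 (SE 0.09) and 0.88 (SE 0.10).

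The reverse order, a rise in myoblasts and a fall in myotubes, was led by Pcdh7, a protocadherin, at 0.86 and -0.24 (difference -1.11, SE 0.09, adjusted p = 1.41e-07). The second was the Mir181b-1 locus, whose probe set reads the hairpin locus and not the mature RNA. The mature RNA named for it by RefSeq is printed with its seed, bases 2 to 8, in capitals, because this small RNA was the 1 microRNA locus among the opposite movers named here (chr1:137966650-137966673, plus strand, GRCm38.p6).
mmu-miR-181b-5p: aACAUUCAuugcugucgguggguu
The locus read 8.27, 8.03 and 8.11 in untreated and 8.80, 8.86 and 8.79 in treated myoblasts, and 8.11, 8.20 and 8.16 in untreated and 8.00, 7.86 and 7.81 in treated myotubes. Untreated stages overlapped, and the treated ones moved apart to either side (0.68 and -0.27, difference -0.95, SE 0.10, adjusted p = 2.26e-06). Mgll, monoacylglycerol lipase, rose by 0.49 and fell by 0.36, Myo6, an unconventional myosin, rose by 0.49 and fell by 0.36, and Cpeb2, a translation regulator, rose by 0.35 and fell by 0.49.

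**Figure D4:**
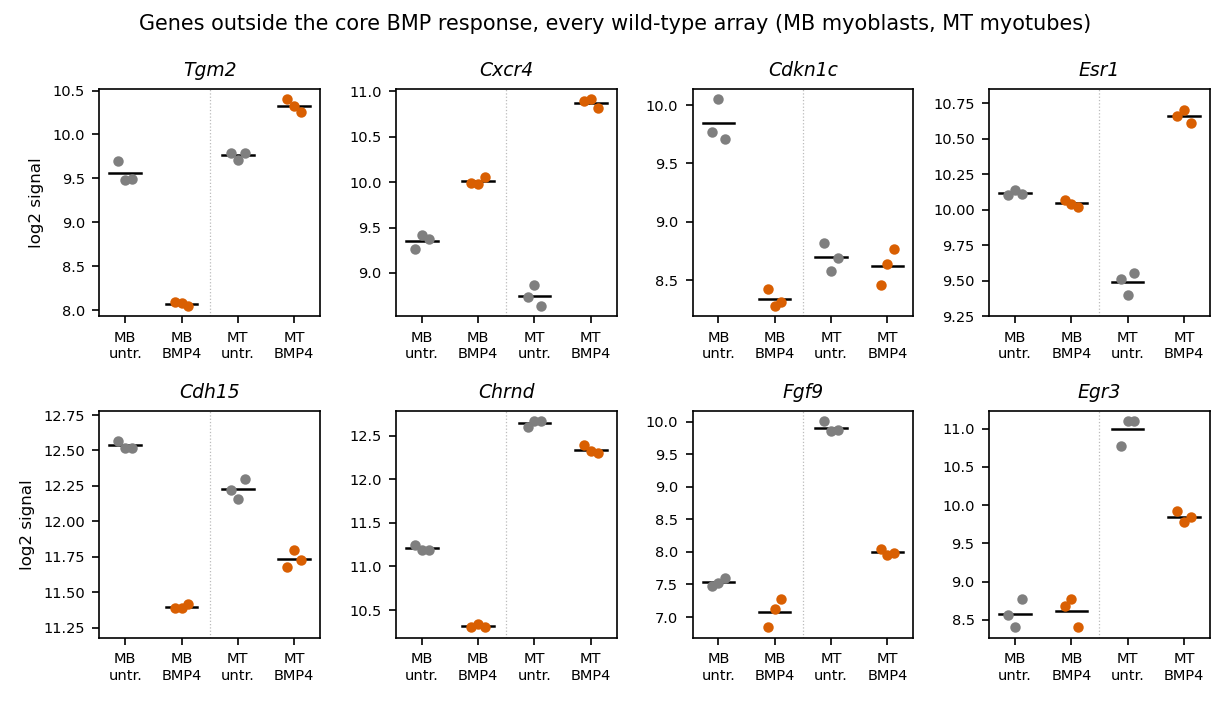
Log2 signals of 8 further genes on every wild-type array, in untreated (grey) and BMP4-treated (orange) myoblasts (MB) and myotubes (MT), with a bar at the mean of each group of 3. Tgm2 falls in myoblasts and rises in myotubes, Cxcr4 and Esr1 turn the order of the stages over, Cdkn1c, Cdh15 and Chrnd fall more in myoblasts, and Fgf9 and Egr3 fall mainly in myotubes.

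The same 682 genes were read as levels, asking where the stages stood apart. Between untreated myotubes and myoblasts 45.0% of all genes tested were called (20.3% higher and 24.7% lower in myotubes), and between treated ones 44.1%. Of the 682, 378 were called in both comparisons in the same direction, 117 when untreated only and 132 when treated only. For 55 genes the order of the stages reversed with both gaps called, led by Cxcr4, Cdkn1c, Ptgs2, Esr1, Pcdh7 and Slc5a7. The gap was smaller in treated than in untreated cultures for 314 genes and larger for 368. A smaller response in myotubes was thus at times a smaller distance to a treated level that both stages shared (Nog, Ccn2) and at times a lower treated level (Msx2, Smad6, Alpl).

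The MuSK-null arrays share no sample with the wild-type ones and give the same stage difference in a separate line. There it was called for 1228 genes (6.16%), 3.24% higher and 2.92% lower. Of the 682 wild-type genes 516 (75.66%) had the same sign in MuSK-null cells, against 50.4% of all genes tested, 268 were called in the same direction and 35 in the opposite one. The difference between the genotypes' stage differences was called for 498 genes (2.5%), and for 176 of the 682. Each genotype is 1 line, so genotype and line cannot be told apart. Foxq1 and Lrrc26 had nearly the same value in both lines (-1.74 and -1.77, -1.64 and -1.60). Alpl (-1.02 and -1.20), Rassf2, a Ras-binding tumour suppressor (-1.09 and -1.42), Nkd2 (-0.98 and -1.60) and Fgfr2 (-1.05 and -1.29) were lower in both. Cdh15 (0.65 and 0.85), Spry2 (1.00 and 1.18) and Dll1 (0.72 and 1.25) were higher in both, and the genotype difference was called for Dll1 alone of these 3 (adjusted p = 0.022).

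For other leading genes the MuSK-null value was near 0 or opposite. Tgm2 gave 0.13 (adjusted p = 0.7) against 2.04, Ptgs2 0.04 against -1.26, Fgf9 0.17 against -1.46 and Avpr1a -0.09 against -1.22, and the genotype difference was called for all 4. Nog (0.57 against -0.71), Id2 (1.92 against -0.70) and Id3 (2.12 against -0.46) were called in opposite directions. Of the 30 BMP-induced factors, 6 had a higher and 5 a lower stage difference in MuSK-null cells, against 3.24% and 2.92% of all genes tested. The MuSK-null minus wild-type value was called higher for 7 of them and lower for 1, against 2.5% of all genes called in either direction. Msx2 kept its sign at -0.53 (adjusted p = 0.083) and differed between genotypes (adjusted p = 0.002). Cxcr4 (2.31 against 1.46) and Chrnd (1.71 against 0.59) had a larger stage difference in MuSK-null cells, both called between genotypes. Of the 30 largest wild-type differences, 25 had the same sign in MuSK-null cells and 16 differed between genotypes.

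**Figure D5:**
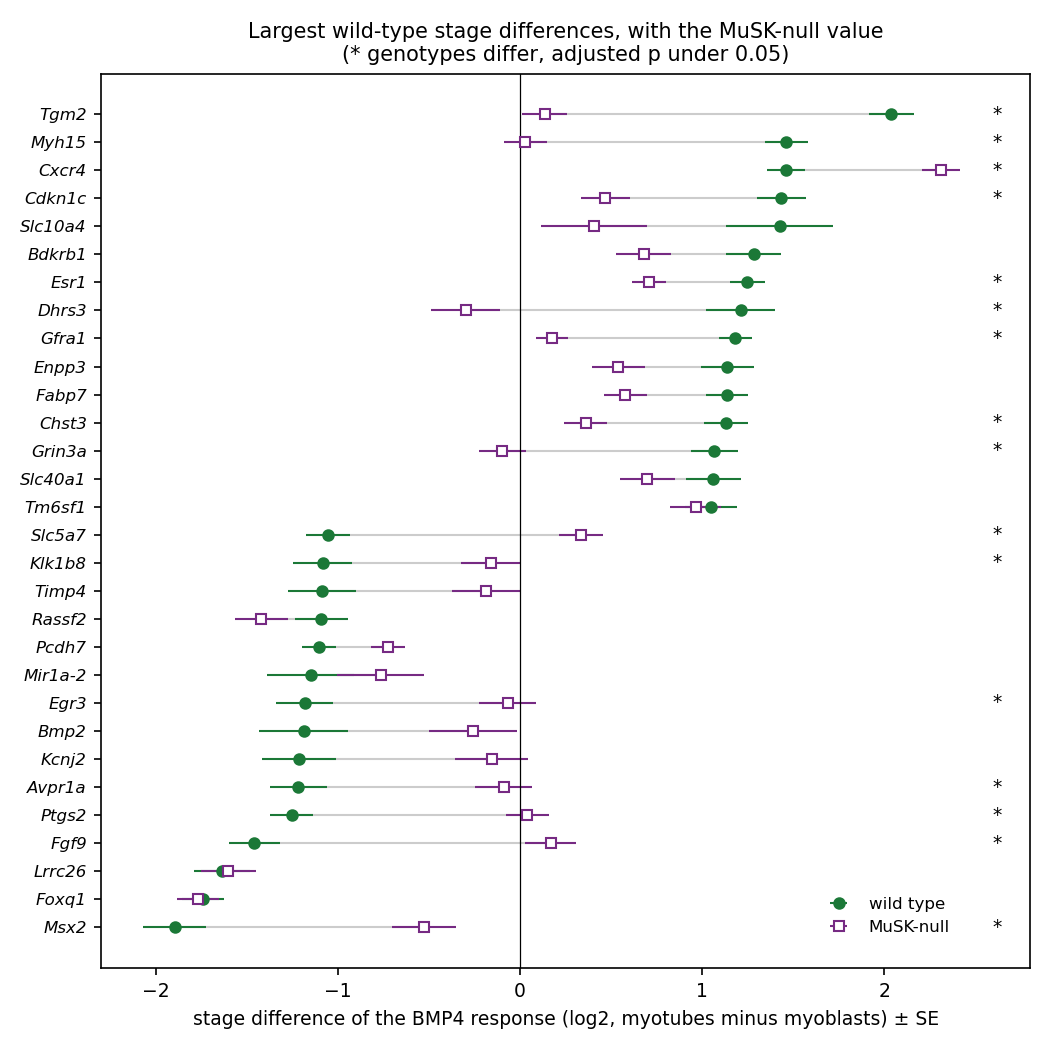
Stage difference of the BMP4 response (log2, myotubes minus myoblasts) with its SE for the 15 largest positive and 15 largest negative wild-type genes, in wild-type (green circles) and MuSK-null cells (open purple squares), with an asterisk where limma called the genotypes apart (16 of 30). Foxq1, Lrrc26 and Tm6sf1 nearly coincide, while Tgm2, Fgf9, Ptgs2 and Egr3 lie near 0 in MuSK-null cells.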

How the data were processed

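Total RNA was hybridised to 24 Affymetrix gene arrays, 3 arrays in each of 8 groups. Deposited signals run from 2.5 to 15.03, the range of a log2 scale. The submitters' processing notes name Partek and Affymetrix Expression Console. The steps of background correction, summarisation and normalization are not stated there, and no other source used here gives them. The platform annotation gave 1 gene for 21789 of 35556 rows, several for 1621 and none for 12146. Of the one-gene rows 21698 matched RefSeq (GRCm38.p6), with 0 symbols changed. The brightest row was kept for 999 genes with several rows (0 of these genes had rows called in opposite directions), giving 19938 genes. In limma 3.58.1 (R 4.3.3) every group of the 24 arrays received its own mean, with 16 residual degrees of freedom. All comparisons were contrasts with eBayes moderation, each adjusted by the Benjamini-Hochberg method over all 19938 genes and called at an adjusted p under 0.05. The fit was tested on simulated data. Genes, 30 lists (769 genes, 729 measured) and the rule for named genes were chosen with earlier results of these data known, so no list is independent evidence of its direction. The rule took the 15 largest differences of each sign, the 5 largest of each pattern of responses, up to 3 called genes per list and direction, and 32 fixed genes, 144 in all. Foxc2, Inhba, Chrng, Chrnb1, Lrp4, Adam12, Myom2 and the less extreme Wnt genes were named after their values were seen. Precision is limited by the number of arrays. Alternatives were a fit on the wild-type arrays alone, trended and robust moderation, quantile normalization, a dim-gene filter, centring on array medians, every probe set as its own test, replicate blocks, a minimum of 1.5-fold and leaving out each array. A block for the array set and a fit without it were added after seeing the data.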

Additional observations from a re-analysis of the deposited data

Results flagged for a closer look

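The BMP4 response differed between the stages for 682 genes in wild-type cells, by limma's test of the difference itself. The stage difference in turn differed between MuSK-null and wild-type cells for 498 genes. Among the 30 largest wild-type differences, 16 were called in that test. The MuSK-null minus wild-type values were negative for Tgm2 (-1.91), Dhrs3 (-1.51), Myh15 (-1.43), Grin3a (-1.17), Gfra1 (-1.01), Cdkn1c (-0.97), Chst3 (-0.77) and Esr1 (-0.54), all genes with a higher wild-type response in myotubes. They were positive for Fgf9 (1.63), Slc5a7 (1.39), Msx2 (1.37), Ptgs2 (1.30), Avpr1a (1.13), Egr3 (1.12) and Klk1b8 (0.93), all with a lower wild-type response in myotubes. Cxcr4 (0.85) was the 1 gene of the 16 whose stage difference was larger in MuSK-null cells. The genes were ranked by their wild-type size, which enters the difference, so the shared direction of the other 15 is a description. The values of Myh15, Grin3a and Klk1b8 have no readable size, because all 4 of their MuSK-null group means and at least 2 of their wild-type ones lay below the dim level of 6.64. For Chst3 untreated wild-type myotubes, and for Avpr1a untreated MuSK-null myotubes, lay below it too.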

How the results depend on the processing

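Of the 134 named genes called for the stage difference, 103 stayed called with each array left out in turn, 107 under 8 other settings, 101 under both, and 0 changed sign. Those 8 settings include the block for the array set and the fit without it. They leave out the minimum of 1.5-fold and the test of every probe set by itself, under which named genes were not followed. With each array left out the count of 682 genes ran from 536 to 640, 293 to 373 higher and 236 to 294 lower. A fit of the 12 wild-type arrays alone called 536 genes, trended and robust moderation 763, a filter on dim genes 754, quantile normalization 804 and each probe set tested by itself 724. Median centring called 687 and moved the share of higher among called genes from 56.01% to 50.66%. With a minimum of 1.5-fold, 280 of all 19938 genes were left, 152 higher and 128 lower. There were 552 for the myoblast response, 356 for the myotube response, 559 for the MuSK-null stage difference and 51 of the 105 called list genes. The lower counts then were 5 for BMP-induced factors, 1 for Smads, 6 for Wnt and 2 for TGF-beta genes, and the neuromuscular junction list kept 3 higher and 0 lower. Blocking on the set of 4 arrays called 1028 genes, 457 of them lower, and 783 for the genotype difference. That block leaves the differences unchanged and acts through the estimated spread. Without the set 681 were called. The replicate numbers were not taken as pairs in the main fit. Same-numbered arrays had correlations of their deviations of 0.26, -0.36 and -0.31 in myoblasts and -0.04, 0.07 and 0.14 in myotubes. The treated array of the same number was the best match for untreated myotube replicates 2 and 3 and for no other. With 3 arrays a group, these values do not settle whether the samples were paired. A replicate block called 549 genes, 299 higher and 250 lower. The number of arrays and the dim signals of genes such as Myh15 limit what can be read.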

Other observations

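Interferon-stimulated genes were higher in untreated myotubes than in untreated myoblasts for 24 of 28 measured members (median 1.07), against 20.3% of all genes tested. Interferon-γ is listed for the myoblast medium alone. The cause of this gap was not tested, and stage, serum, interferon-γ and temperature cannot be told apart in it. With BMP4 8 of the 28 fell in myotubes and 3 in myoblasts, against 4.37% and 5.76% of all genes tested. The stage difference was called for 1, a share (3.57%) near the 3.42% over all genes. It was the antiviral enzyme gene Oas2 (-0.47, SE 0.10, adjusted p = 0.00985 by limma, 0.0567 with a replicate block). Sterol synthesis genes fell in 4 of 21 cases in myotubes and 1 in myoblasts, against 4.37% and 5.76% of all genes tested. The 1 member called for the stage difference (4.76%, against 3.42%) was Dhcr7, the last enzyme of cholesterol synthesis (-0.44, SE 0.09).

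Hox genes rose in 13 of 37 cases in myoblasts and 8 in myotubes, against 5.21% and 4.40% of all genes tested, and 0 fell. Hoxa9, Hoxa10 and Hoxa11, neighbouring genes of limb patterning, had a lower response in myotubes (-0.50, -0.50 and -0.53). The Hoxa11 call ended without untreated myotube replicate 3 (adjusted p = 0.0502) and without the array set (adjusted p = 0.0581). Of 50 cell cycle and DNA replication genes, 45 were lower in untreated myotubes, against 24.7% of all genes tested. A stage difference of the response was called for 2, Cdc6 and E2f8, a share (4.0%) near the 3.42% over all genes. The E2f8 call (adjusted p = 0.0417) ended for 8 of 12 arrays left out (adjusted p up to 0.13), all but untreated myoblast replicate 2, BMP4 myoblast replicates 1 and 2 and BMP4 myotube replicate 3. It also ended in a fit of the wild-type arrays alone, with median centring and with a replicate block (adjusted p up to 0.0653), which leaves a count of 1. Fibroblast, adipocyte and heat shock lists had 0 called members of 12, 12 and 22. With 3.42% called over all genes tested, 0 in lists this short is no result about their members.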
